A study of Mus musculus with 18 samples.

Results

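The genes described here are those for the enzyme that makes histamine, Hdc (histidine decarboxylase), for the receptors that bind it, Hrh1, Hrh2 and Hrh4, for an enzyme that inactivates it, Hnmt (histamine N-methyltransferase), and Cpa3, which encodes mast cell carboxypeptidase A3. The 6 genes were chosen by symbol with the values of Y136F against WT cells at 4 weeks known, and Hdc, Hrh4 and Cpa3 were selected on their high signal in that comparison. Of the 6 genes, 5 had a matched probe, 1 each, among 41174 probes and 17178 named genes of the array. Hrh2 had no probe among those named by accession and is not analysed here. Differences that involve the Y136F arrays of 4 weeks are therefore given as a description, with no test of the genes themselves.

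Single-colour Agilent arrays, 1 per mouse, read the RNA of CD4+ T cells with a naive surface profile (CD44low) that were sorted from spleens of C57BL/6 mice. LAT is the membrane adaptor that couples the T cell receptor to its downstream enzymes, and Y136F replaces the LAT tyrosine that recruits phospholipase C-gamma 1. By the sample titles, WT mice were ERCre- LAT f/-, LAT KO mice ERCre+ LAT f/- and Y136F mice ERCre+ LAT f/m, where f, - and m are floxed, null and mutant alleles. The mice of all 3 genotypes, WT included, received tamoxifen, for 1 or 4 weeks, which activates the inducible Cre and removes the floxed allele where Cre is present, and each of the 6 groups held 3 mice. The WT mice thus had 1 functional allele. The series text gives the WT mice as Cre-positive. If the titles hold, an effect of Cre cannot be told apart from that of the mutations in comparisons with WT. LAT KO and Y136F mice were both ERCre+ by the titles, so Cre did not differ between them.

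Histamine is formed from histidine in a single step by histidine decarboxylase, and mast cells and basophils are its best known source, storing it in granules together with proteases such as carboxypeptidase A3. Hrh1 signals mainly through Gq and phospholipase C, Hrh2 through Gs and cyclic AMP, and Hrh4, which is found mostly on blood and immune cells, through Gi. T helper cells carry histamine receptors, and histamine is known to shift the balance of their responses.

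Facts that bear on every value are these. Values are scaled log2 signals, that is, the log2 of the background-corrected intensity of a probe minus the log2 of the 75th percentile of its array, so 0 means a signal equal to that percentile. That percentile lay between 1124 and 1896 intensity units, and between 84.2% and 97.9% of the spots of an array were well above background. Lat itself had a mean scaled log2 signal of 3.59 ± 0.28 (SD, n = 3) in WT cells, 2.71 ± 0.42 (SD, n = 3) in LAT KO cells and 4.07 ± 0.31 (SD, n = 3) in Y136F cells at 4 weeks. The T cell identity list (Cd3, Cd4, Lck and others) had 12 of 12 genes well above background on the 3 arrays of each group. The labels give every Y136F mouse as female, and at 4 weeks every mouse of the other genotypes as male, so sex and genotype cannot be told apart by the labels at 4 weeks. The Y-linked genes went against the sex label on 2 LAT KO arrays, replicate 1 at the 1-week time and replicate 2 at the 4-week time. LAT KO replicate 3 of 1 week stood apart by 7888 spots marked as outliers, against 187 to 952 elsewhere. Signals of a whole population of sorted cells were measured, so fewer cells of a type and less RNA per cell cannot be told apart. Nothing in the labels says whether the mice of a group were littermates.

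Hdc was high in Y136F cells at 4 weeks and low in every other group. In Y136F cells at 4 weeks its probe read 3040.0, 4006 and 4217 intensity units in the 3 mice. On the other 15 arrays it lay between 215.9 and 614.1 units, well above background on each of the 15. The 3 Y136F arrays of 4 weeks were thus the high ones, and no other array overlapped with them. On the log2 scale the Y136F level at 4 weeks was 1.47 ± 0.15 (SD, n = 3). It was -1.75 ± 0.32 in WT and -2.01 ± 0.33 in LAT KO cells of the same time (SD, n = 3 each). At 1 week it was -2.17 ± 0.36 in WT, -2.32 ± 0.16 in Y136F and -1.59 ± 0.24 in LAT KO cells (SD, n = 3 each). The order from the highest was Y136F at 4 weeks, LAT KO at 1 week, WT at 4 weeks, LAT KO at 4 weeks, WT at 1 week and Y136F at 1 week. The gap below the first was 3.06, while each later pair of neighbours overlapped and lay at most 0.26 apart.

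Hnmt, which methylates histamine inside cells, differed little between the groups. Its signal lay between 46.1 and 183.5 intensity units over the 15 arrays other than Y136F at 4 weeks. The Y136F arrays of 4 weeks read 79.9, 107.9 and 99.8 units, inside that range. The mean was -3.81 ± 0.21 in Y136F, -3.53 ± 0.32 in WT and -3.71 ± 0.15 in LAT KO cells at 4 weeks (SD, n = 3 each). At 1 week it was -4.35 ± 0.33 in Y136F, -4.15 ± 0.72 in WT and -3.85 ± 0.79 in LAT KO cells (SD, n = 3 each). All neighbouring groups in the order of Hnmt levels overlapped.

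Hrh4, the receptor gene found mostly in blood cells, was also higher on the 3 Y136F arrays of 4 weeks than on every other array. The Y136F arrays of 4 weeks read 774.5, 964.0 and 1185 intensity units. The WT arrays of that time read 61.4, 84.0 and 73.6 units, and the LAT KO arrays 68.6, 42.4 and 90.0 units. The 15 arrays other than Y136F at 4 weeks ranged from 25.3 to 127.2 units, and 14 of them were well above background, the exception being WT replicate 1 of 1 week. The mean scaled log2 signal was -0.48 ± 0.14 (SD, n = 3) in Y136F cells at 4 weeks. It was -4.11 ± 0.24 in WT and -4.41 ± 0.55 in LAT KO cells at 4 weeks (SD, n = 3 each). At 1 week it was -4.97 ± 0.92 in WT, -4.99 ± 0.36 in Y136F and -4.21 ± 0.86 in LAT KO cells (SD, n = 3 each). The gap from the first to the second group was 3.63, and the groups after it overlapped with their neighbours.

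Hrh1, the receptor that couples to Gq, did not separate the genotypes at 4 weeks. Its signal was 393.6, 420.3 and 350.7 units on the Y136F arrays of 4 weeks and 212.5, 543.4 and 293.0 units on the WT arrays. The LAT KO arrays of 4 weeks read 334.9, 159.0 and 241.2 units. The means at 4 weeks were -1.79 ± 0.30 in Y136F, -1.95 ± 0.64 in WT and -2.54 ± 0.60 in LAT KO cells (SD, n = 3 each), with overlapping arrays. At 1 week they were -3.15 ± 0.23 in Y136F and -2.94 ± 1.18 in WT cells (SD, n = 3 each), and -3.21 ± 0.25 in LAT KO cells (SD, n = 2). The third LAT KO array of 1 week read 784.3 units, the highest of all 18, on a spot marked as an outlier, and was left out of that mean. With that spot kept, the LAT KO minus WT difference at 1 week was 0.52 in place of -0.27, and neither passed the test.

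Cpa3 was dim outside Y136F cells of 4 weeks and uneven within them. The Y136F arrays of 4 weeks read 219.6, 817.7 and 184.0 intensity units. The other 15 arrays lay between 4.32 and 47.2 units, and only 8 of the 15 were well above background. That was the case on 2 of 3 WT, 1 of 3 LAT KO and 0 of 3 Y136F arrays at 1 week, and on 3 of 3 WT and 2 of 3 LAT KO arrays at 4 weeks. The mean was -2.06 ± 1.25 (SD, n = 3) in Y136F cells at 4 weeks, with replicate 2 at -0.66 and the others at -2.46 and -3.07. It was -6.04 ± 0.49 in WT and -6.15 ± 1.11 in LAT KO cells of 4 weeks (SD, n = 3 each). At 1 week it was -6.89 ± 1.37 in WT, -6.74 ± 0.47 in Y136F and -6.56 ± 1.58 in LAT KO cells (SD, n = 3 each). The lowest Y136F array of 4 weeks still lay 1.84 above the highest other array, LAT KO replicate 3 of 1 week. Below the first group, all neighbours overlapped.

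**Figure D1:**
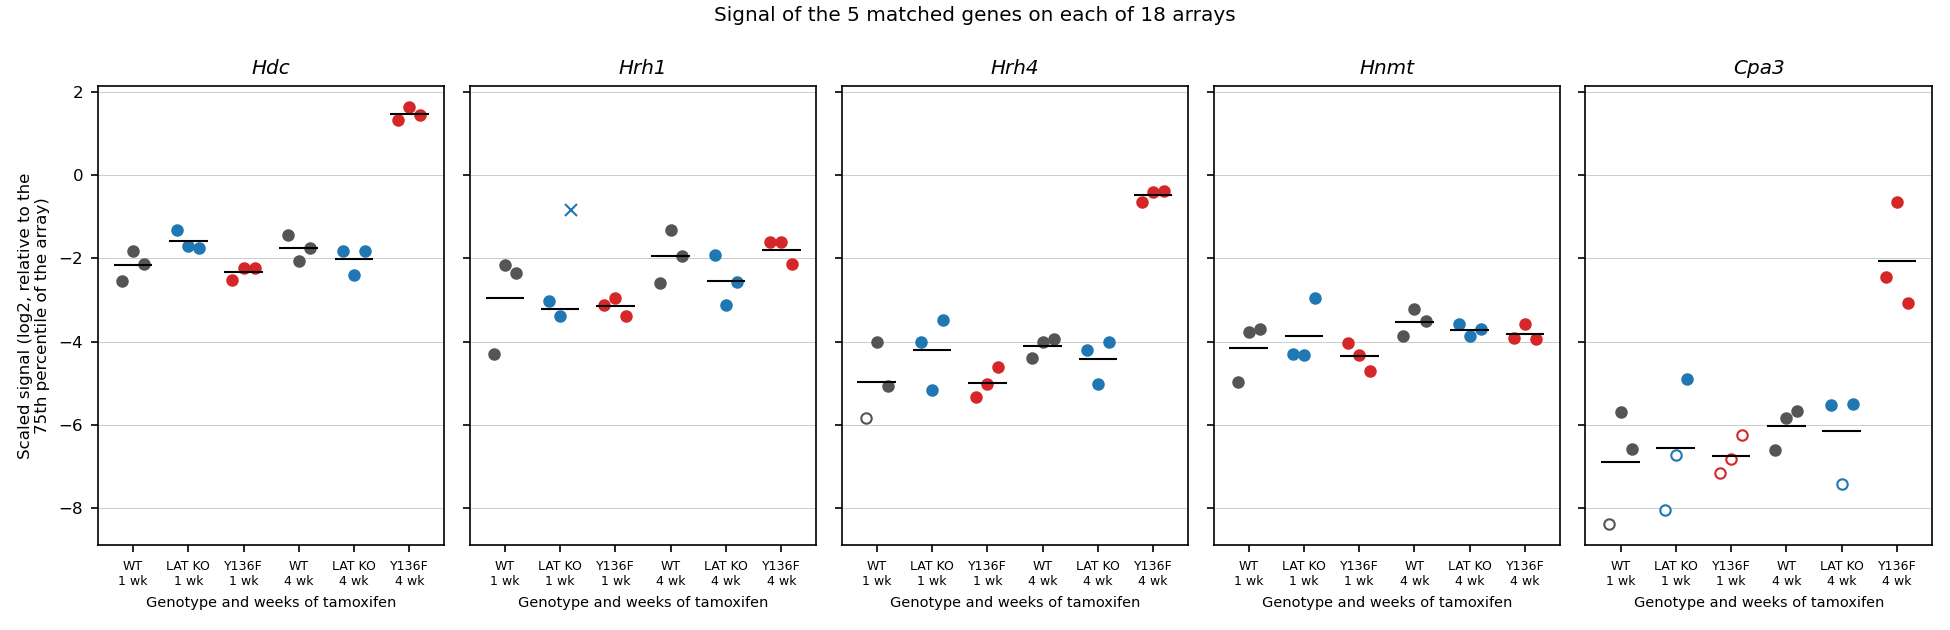
Scaled log2 signal (vertical axis, relative to the 75th percentile of each array) of Hdc, Hrh1, Hrh4, Hnmt and Cpa3 in the 6 groups (horizontal axis), 1 point per mouse, with black bars for group means; open points were not well above background and the cross is the Hrh1 outlier spot left out of its mean. Hdc, Hrh4 and Cpa3 are high on the 3 Y136F arrays of 4 weeks and on no other array, while Hrh1 and Hnmt overlap between the genotypes.

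The promoter windows of Hdc and Cpa3 are printed because these genes were high on the same 3 arrays. Both come from RefSeq on build GRCm38.p6 and run from 250 bases before to 50 bases after the annotated start, on the minus strand, at chr2:126618629-126618928 for Hdc and chr3:20242132-20242431 for Cpa3. Capitals mark the letters AGATAA, a motif bound by Gata family factors.
Hdc: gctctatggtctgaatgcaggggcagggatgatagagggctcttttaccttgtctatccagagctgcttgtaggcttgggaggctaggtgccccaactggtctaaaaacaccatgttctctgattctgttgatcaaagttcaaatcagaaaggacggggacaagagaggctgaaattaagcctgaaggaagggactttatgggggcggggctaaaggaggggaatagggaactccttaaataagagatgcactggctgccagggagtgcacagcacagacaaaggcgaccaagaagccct
Cpa3: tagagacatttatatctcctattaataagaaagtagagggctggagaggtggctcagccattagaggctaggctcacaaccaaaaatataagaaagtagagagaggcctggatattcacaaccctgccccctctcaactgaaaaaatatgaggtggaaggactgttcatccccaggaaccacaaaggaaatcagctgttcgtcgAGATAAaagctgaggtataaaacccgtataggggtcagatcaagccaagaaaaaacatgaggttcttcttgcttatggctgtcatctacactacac
Cpa3 held AGATAA once, on the gene's strand with its first base at position -46 from the start, and Hdc did not. Across all 32851 windows, searched on both strands, 11.2% held AGATAA. Another form of that motif, TGATAA (9.05% of windows), the AP-1 motif TGANTCA (7.81%) and the NFAT-type string TGGAAA (21.4%) were in neither window. Other forms of the Gata and NFAT motifs were not searched across the windows. Among them, the letters TGATAG can be read in the Hdc window and AGGAAA in the Cpa3 window. Their share over all windows was not counted, so nothing is read from them. The E-box CANNTG, present in 72.3% of windows, occurred at -157 in Hdc and at -116 and -59 in Cpa3. Each of these promoter windows held 3 CpG, against a median of 7 over all windows. A match is a string of letters and no measure of binding. Hrh4 had no entry in the table used.

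For Y136F against WT cells at 4 weeks, the comparison that chose the genes, Hdc was higher by 3.23 ± 0.22 on the log2 scale (SE), a fold of 9.36. Hrh4 was higher by 3.63 ± 0.44 (SE), a fold of 12.4. Cpa3 was higher by 3.98 ± 0.82 (SE), a fold of 15.7. Hrh1 differed by 0.16 ± 0.46 and Hnmt by -0.29 ± 0.38 (SE). In this comparison 3 of the 5 genes were called, beside 3.39% of 31552 features, and since the genes were selected here nothing is read from that count. Arrays of both genotypes shared slides 2, 3 and 4, which allowed each difference to be taken within a slide. Hdc differed by 3.71, 3.21 and 2.76 on these slides, Hrh4 by 3.60, 3.55 and 3.74, and Cpa3 by 5.19, 2.60 and 4.14. Every within-slide value of these 3 genes was thus positive, and those of Cpa3 were the most spread. Cpa3 was no longer among the called genes without Y136F replicate 2, where its difference was 3.27, or with labelled sex as a term, where it was 5.44; sex is then estimated from the 1-week WT and LAT KO mice.

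**Figure D2:**
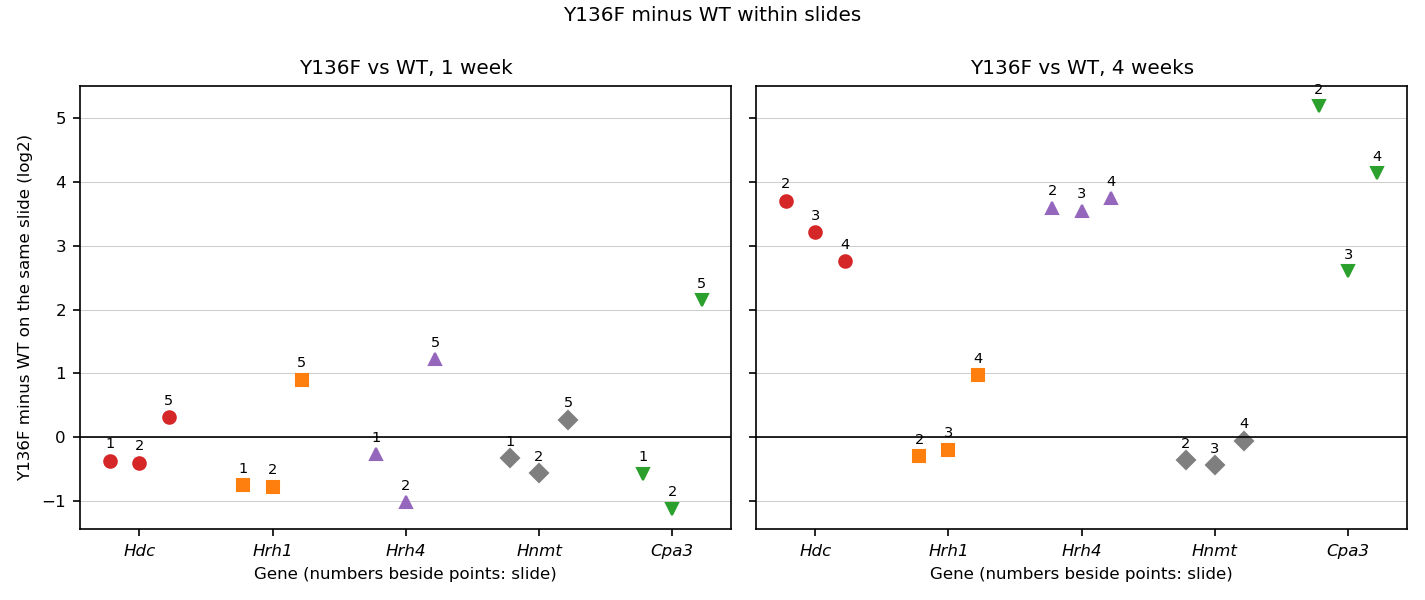
Y136F minus WT difference (log2, vertical axis) between the 2 arrays of a slide for each gene (horizontal axis), at 1 week (left) and 4 weeks (right); numbers beside points are slides. At 4 weeks Hdc, Hrh4 and Cpa3 are positive on all 3 slides, and at 1 week only slide 5 gives positive values, where for Cpa3 neither array was well above background.

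The same 3 genes set Y136F cells of 4 weeks apart from the LAT KO cells of that time and from the Y136F cells of 1 week; these comparisons share the Y136F arrays of 4 weeks with the one that chose the genes. LAT KO minus Y136F at 4 weeks was -3.49 ± 0.22 for Hdc, -3.93 ± 0.44 for Hrh4 and -4.09 ± 0.82 for Cpa3 (SE). The called share was 3 of the 5 genes, beside 3.37% of all features. Since Hdc, Hrh4 and Cpa3 were selected on the Y136F arrays used here, nothing is read from that count. Cpa3 lost its call there without LAT KO replicate 2 of 4 weeks (-3.44) or without Y136F replicate 2 of 4 weeks (-3.38). Y136F at 4 weeks minus Y136F at 1 week was 3.80 ± 0.22 for Hdc and 4.51 ± 0.44 for Hrh4 (SE). Cpa3 was 23.4-fold higher at 4 weeks, taking for each dim array the higher of its own signal and the lowest signal well above background. That fold is no lower bound. With normexp background correction the log2 difference of Cpa3 was 2.39, and with the deposited matrix of log2 values it was 2.65. On the main values, Hrh1 was higher by 1.36 ± 0.46 and Hnmt by 0.54 ± 0.38 (SE). Here 3 of 5 genes were called beside 7.66% of features, and all 5 had non-overlapping arrays, which 21.7% of features also had in that direction. Nothing is read from these counts either, for the same reason.

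Sex moved with genotype at 4 weeks, and its part in the differences cannot be told apart there. The 7 arrays labelled female other than Y136F at 4 weeks were all of 1 week. On them Hdc ranged from -2.54 to -1.31, Hrh4 from -5.84 to -4.00 and Cpa3 from -8.38 to -5.70 on the log2 scale. By Y-linked genes in place of labels, 7 such arrays were low, 6 of them of 1 week and 1 a LAT KO array of 4 weeks, and their highest values were -1.71 for Hdc, -4.00 for Hrh4 and -5.70 for Cpa3. The lowest values of the Y136F arrays of 4 weeks were 1.33, -0.64 and -3.07. With labelled sex as a term, the Y136F minus WT difference at 4 weeks was 3.13 for Hdc and 4.11 for Hrh4.

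Loss of LAT, as opposed to the point mutation, was compared with WT next; at 4 weeks this uses the WT arrays of the comparison that chose the genes. At 1 week, Hdc read 614.1, 405.0 and 420.3 units on the LAT KO arrays and 248.3, 351.2 and 373.5 units on the WT arrays. The LAT KO arrays were all higher, by 0.58 ± 0.22 on the log2 scale (SE). The difference did not pass the test (unadjusted p = 0.0163, adjusted p = 1.0 in limma), and 1.19% of all features also had non-overlapping higher arrays. Replicate 1, the highest, is 1 of the arrays that go against their sex label, and without both such arrays the difference was 0.44. Hrh4 differed by 0.75 ± 0.44, Hnmt by 0.29 ± 0.38, Cpa3 by 0.34 ± 0.82 and Hrh1 by -0.27 ± 0.51 (SE), with overlapping arrays. None of the 5 genes was called at 1 week, where 0.019% of features were, and 1 of the 5, Hdc, had an unadjusted p under 0.05.

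At 4 weeks, LAT KO minus WT was -0.26 ± 0.22 for Hdc, -0.59 ± 0.46 for Hrh1, -0.30 ± 0.44 for Hrh4, -0.18 ± 0.38 for Hnmt and -0.11 ± 0.82 for Cpa3 (SE). All 5 were below 0, as was the median over all features, -0.17. Of the 5 genes 0 were called and 0 had an unadjusted p under 0.05 in limma, beside 0.0982% of features called. The LAT KO effect at 4 weeks minus that at 1 week, a contrast added after the data were seen, was -0.84 ± 0.31 for Hdc (SE; unadjusted p = 0.0144, adjusted p = 0.815 in limma). For Hrh4 it was -1.06 ± 0.63 and for Cpa3 -0.45 ± 1.16 (SE). No feature was called there (0.0%; 1614 of 31518 had an unadjusted p under 0.05), and 0 of the 5 genes were. The highest LAT KO array of either time lay 2.64 below the lowest Y136F array of 4 weeks for Hdc, 2.83 for Hrh4 and 1.84 for Cpa3.

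At 1 week none of the 5 genes was called between Y136F and WT cells. Hdc differed from WT by -0.15 ± 0.22, Hrh1 by -0.21 ± 0.46, Hrh4 by -0.02 ± 0.44 and Hnmt by -0.21 ± 0.38 (SE). For Cpa3 no Y136F array of 1 week was well above background, and no difference is given. None of the 5 had an unadjusted p under 0.05 in limma, and 0.0158% of features were called. The slides disagreed: on slides 1 and 2 the 4 genes other than Cpa3 were lower in Y136F (Hdc by -0.37 and -0.40, Hrh4 by -0.26 and -1.02), and on slide 5 they were higher (Hdc by 0.31, Hrh1 by 0.90). The WT array of slide 5 was not well above background for Hrh4. WT replicate 1 of 1 week, on slide 5, was the lowest of all arrays for each of the 4 genes and had the smallest share of spots well above background, 84.2%. Without it Hdc differed by -0.34 and Hrh4 by -0.46. Without WT replicate 2 of 1 week Hdc differed by 0.017. LAT KO minus Y136F at 1 week was 0.73 ± 0.22 for Hdc (SE; unadjusted p = 0.00366, adjusted p = 0.857 in limma), with non-overlapping arrays, as 4.48% of features had. Hrh4 differed by 0.78 ± 0.44, Hnmt by 0.50 ± 0.38 and Hrh1 by -0.06 ± 0.51 (SE). For Cpa3 only 1 of 3 LAT KO arrays and no Y136F array was well above background, and no difference is given. The comparison called no feature (0.0%; 1802 at an unadjusted p under 0.05).

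Time under tamoxifen in the other genotypes left the genes near their low levels. In WT cells 4 weeks exceeded 1 week by 0.42 ± 0.22 for Hdc, 0.99 ± 0.46 for Hrh1, 0.86 ± 0.44 for Hrh4, 0.62 ± 0.38 for Hnmt and 0.85 ± 0.82 for Cpa3 (SE), with overlapping arrays and a median over all features of 0.21. The comparison called no feature (0.0%; 6107 at an unadjusted p under 0.05), and Hrh1 had an unadjusted p of 0.0454 (adjusted p = 0.251 in limma). Without WT replicate 1 of 1 week, Hrh1 differed by 0.32. In LAT KO cells the change was -0.42 ± 0.22 for Hdc, with all 4-week arrays lower (0.78% of features), 0.67 ± 0.51 for Hrh1, -0.20 ± 0.44 for Hrh4, 0.14 ± 0.38 for Hnmt and 0.41 ± 0.82 for Cpa3 (SE). Again no feature was called (0.0%; 185 at an unadjusted p under 0.05).

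**Figure D3:**
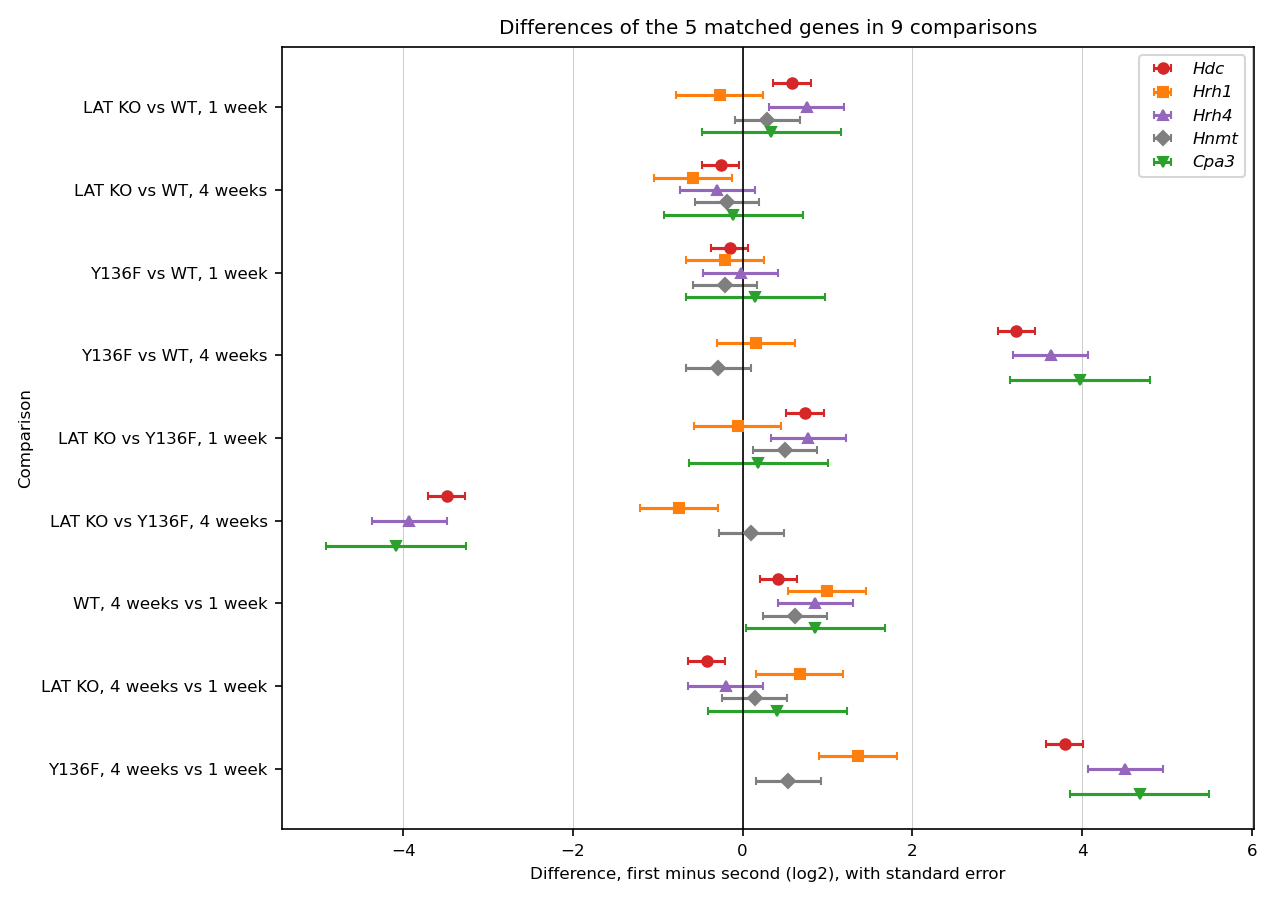
Difference between the first and the second named group (log2, horizontal axis) with its standard error for each gene in 9 comparisons (vertical axis). Hdc, Hrh4 and Cpa3 stand 3.23 or more from 0 in the 3 comparisons that hold the Y136F arrays of 4 weeks and at most 0.86 from 0 in the others. These 3 genes were selected on those arrays. The Cpa3 points of the comparisons with Y136F at 1 week rest on arrays near background, and the text gives no value for them.

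Other genes of the histamine pathway were mostly not called. Of 11 further genes of histamine receptors, breakdown and transport, 0 rose and 1 fell in Y136F cells at 4 weeks, with a median difference of -0.39 against -0.19 over all features. Against WT at that time, 3.39% of all features were called. The gene that fell was Slc22a2, which encodes an organic cation transporter, by -1.35 ± 0.28 (SE; adjusted p = 0.00986 in limma). It also fell in Y136F cells at 1 week (-1.78 ± 0.28, adjusted p = 0.0404) and in LAT KO cells at 4 weeks (-1.50 ± 0.28, adjusted p = 0.0491), while its difference in LAT KO cells at 1 week, -1.48 ± 0.28, did not pass (adjusted p = 0.155). Between 1 and 4 weeks in Y136F cells 1 of the 11 was called, beside 7.66% of all features. It was Aldh2, an aldehyde dehydrogenase, which fell by -0.84 ± 0.19 (SE, adjusted p = 0.0104 in limma). Aoc1 (diamine oxidase, which breaks down histamine outside cells) differed by -0.41 ± 0.43 and Slc18a2 (the vesicular monoamine transporter that loads histamine into granules) by 0.18 ± 0.18 at 4 weeks (SE). Hrh3, the receptor best known from neurons, differed by -0.29 ± 0.22 (SE). Beside 3.39% of all features, 2 of 24 tested genes for receptor coupling rose and 0 fell in Y136F cells at 4 weeks, with a median of 0.04. These were Gnaq, the alpha subunit of Gq, by 1.31 ± 0.32 (SE; adjusted p = 0.0256), and Plcb4, a phospholipase C that Gq activates, by 0.69 ± 0.18 (SE; adjusted p = 0.0443 in limma). Between 1 and 4 weeks in Y136F cells, where 7.66% of all features were called, 3 of the 24 rose and 1 fell. Gnaq, Plcb3 and Plcb4 rose, by 1.68 ± 0.32, 0.915 ± 0.175 and 0.85 ± 0.18, and Plcb2 fell by -0.63 ± 0.16 (SE). Of 12 other carboxypeptidase genes, 0 rose and 0 fell in Y136F cells at 4 weeks, with a median of -0.51. Between the times 1 of the 12 was called, Cpq, which rose by 1.31 ± 0.38 (SE, adjusted p = 0.0442 in limma).

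Markers of the cells best known for Hdc and Cpa3 were measured beside them. Of 16 defining genes of mast cells and basophils, 14 had a tested probe, Kit and Tpsab1 being the others. None of the 14 was called between Y136F and WT cells at 4 weeks; 5 lay above 0, and their median difference was -0.25 against -0.19 over all features. Their summed signal, in units of the 75th percentile of an array, was 3.07, 5.76 and 2.38 on the Y136F arrays, 2.91, 3.48 and 3.90 on the WT arrays and 2.40, 1.99 and 3.0 on the LAT KO arrays. Mcpt9 and Enpp3 were not well above background on any Y136F array of 4 weeks. Fcer1a, the alpha chain of the IgE receptor, differed by -0.45 ± 0.29, and Mcpt8, a basophil protease, by -0.51 ± 0.38 (SE). The chymase genes Cma1 and Mcpt4 lay on the other side, at 0.89 ± 0.38 (SE, adjusted p = 0.257) and 0.99 ± 0.42 (SE, adjusted p = 0.254 in limma). So did Gata2 at 1.46 ± 0.91 (SE, adjusted p = 0.435 in limma), Mcpt1 and Cd200r3. Mcpt2 and Mcpt9, each not well above background on some of these arrays, lay below 0.

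Some of these markers were called against the other low groups. Cma1 and Mcpt4 were called lower in LAT KO than in Y136F cells at 4 weeks, by -1.50 ± 0.38 and -1.57 ± 0.42 (SE; adjusted p = 0.0357 and 0.0469 in limma). Between 1 and 4 weeks in Y136F cells 3 of the 14 were called higher, beside 7.66% of all features called. These were Cma1, Mcpt4 and Gata2, the last well above background on 0 of 3 arrays at 1 week. The median over the 14 was 1.13 against 0.13 over all features, but Mcpt9 and Enpp3 were well above background on no array of either time and Mcpt2 on only 1. In WT cells the median between the times was 0.70, with 0 called.

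Markers of other cells were called in the same comparison of times in Y136F cells, where 7.66% of all features were called. Of 14 neutrophil and macrophage genes 5 rose (S100a8, S100a9, Ltf, Csf1r and Adgre1), S100a9 by 2.33 ± 0.48 (SE; adjusted p = 0.00659 in limma), and S100a8 was well above background on 0 of 3 arrays at 1 week. Of 7 eosinophil genes 1 rose, Prg2, by 1.39 ± 0.34 (SE). Of 9 CD8 T and NK cell genes 2 rose, Klrb1c and Eomes, and Eomes did so by 2.46 ± 0.39 (SE). Of 10 genes associated with mast cells 1 rose, Il1rl1, by 2.93 ± 0.47 (SE), and of 10 B cell genes 0 were called. Of 12 T cell identity genes Cd5 and Cd6 rose and Lef1 fell. Of 14 Th2 genes, a list put together with results of these data known, 9 rose and 0 fell. Y136F replicate 2 of 4 weeks, the highest array for Cpa3 and, on the scaled log2 signal, Hdc, also had the highest mast cell and basophil sum. Hrh4 was highest on replicate 3, which had the lowest such sum of the 3. The part of all such cells in the Hdc, Hrh4 and Cpa3 signals was not tested.

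Other lists gave these values for Y136F against WT at 4 weeks, where 3.39% of all features were called. Among 10 genes associated with mast cells but shared with other cells, 0 were called, and Il1rl1 (a cytokine receptor subunit) differed by 1.74 ± 0.47 (SE; adjusted p = 0.0514 in limma). Of 7 eosinophil genes 0 were called, and the sum was 2.34, 2.31 and 1.71 on the Y136F arrays and 2.15, 2.47 and 2.73 on the WT arrays. Of 14 neutrophil and macrophage genes 1 rose, S100a8, by 2.99 ± 0.76 (SE; adjusted p = 0.0369), which was well above background on 1 of 3 WT arrays. The sum of that list was 6.68, 4.72 and 3.28 on the Y136F arrays and 3.62, 5.02 and 5.31 on the WT arrays. Of 10 B cell genes 0 were called, of 9 CD8 T and NK cell genes 1 rose (Eomes, by 2.62 ± 0.39, SE, adjusted p = 0.000838), and of 12 T cell identity genes 2 rose (Cd5 and Cd6). The part of these cells was not tested either.

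Th2 cells are helper T cells that make interleukin 4 and its relatives. Of a list of 14 Th2 genes, put together with results of these data known, 4 rose and 0 fell in Y136F against WT cells at 4 weeks, with a median difference of 0.68 against -0.19 over all features. Gata3, the factor that sets up the Th2 state, rose by 1.59 ± 0.20 (SE; adjusted p = 0.000203 in limma). Nfil3 rose by 1.99 ± 0.27, Areg, which encodes amphiregulin, by 2.08 ± 0.38, and Epas1, an oxygen-regulated transcription factor, by 3.002 ± 0.34 (SE). Il4 itself differed by 0.57 ± 0.35 (SE; adjusted p = 0.435). Il9 (-0.73), Il10 (-0.61), Il24 (-0.59) and Pparg (-0.36) lay below 0 and were not called. The summed signal of the list was 29.5, 40.6 and 37.5 on the Y136F arrays, 15.2, 13.9 and 12.7 on the WT arrays and 12.6, 7.72 and 12.1 on the LAT KO arrays, with no overlap between Y136F and the rest. The probes of Maf and Epas1 made up most of this linear sum on each of these 9 arrays.

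**Figure D4:**
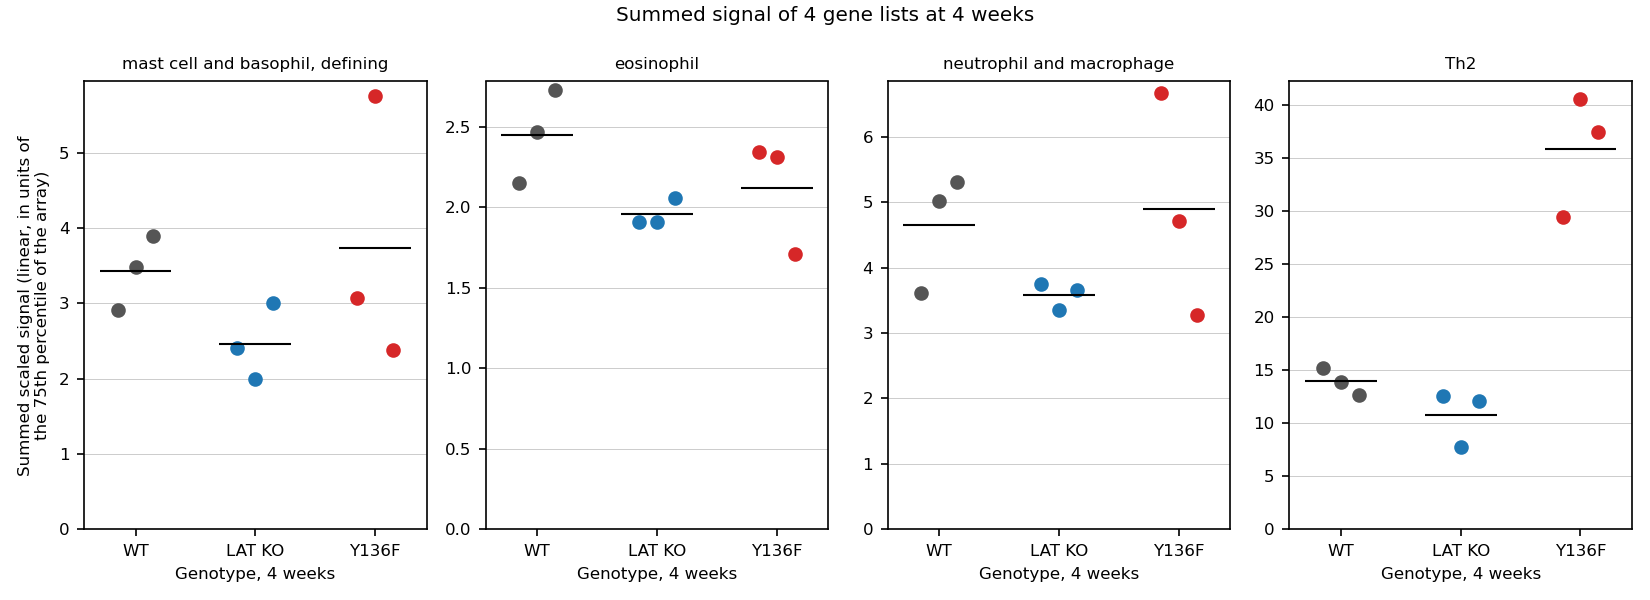
Summed scaled signal (linear, in units of the 75th percentile of each array, vertical axis) of 4 gene lists in WT, LAT KO and Y136F cells at 4 weeks (horizontal axis), 1 point per mouse, with black bars for means. The mast cell and basophil, eosinophil and neutrophil and macrophage sums of Y136F and WT overlap, while the Th2 sums of Y136F (29.5 to 40.6) lie above those of WT (12.7 to 15.2). The Th2 list was put together with results of these data known, and Maf and Epas1 made up most of its sum.

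The genes most like each of these over the 18 arrays were found by the root mean square difference of mean-centred log2 signals among 13669 other named genes, a description with no test. For Hdc they were Lgals3 (0.39), Lpar3 (0.41), Ccr2 (0.43), Akr1c18 (0.45) and Epas1 (0.47), with Hrh4 sixth (0.49). Lgals3 encodes galectin 3, Ccr2 a chemokine receptor and Lpar3 a lysophosphatidic acid receptor. For Hrh4 the closest was Hdc (0.49), followed by Bace2 (0.58), Lpar3 (0.59), Akr1c18 (0.59) and Ccn4 (0.63). For Cpa3 it was Hrh4 (0.74), followed by Akr1c18 (0.88), S100a8 (0.93), Hdc (0.98) and Lpar3 (1.06). Since Hdc, Hrh4 and Cpa3 were selected as high on the same 3 arrays, their closeness to each other is not read as a result. The lists share Lpar3 and Akr1c18, both high on the Y136F arrays of 4 weeks. Hnmt spanned only 2.03 over the 18 arrays and had Olfr394 (0.16) as its closest gene. Hrh1 was not ranked, since 1 of its values was left out.

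**Figure D5:**
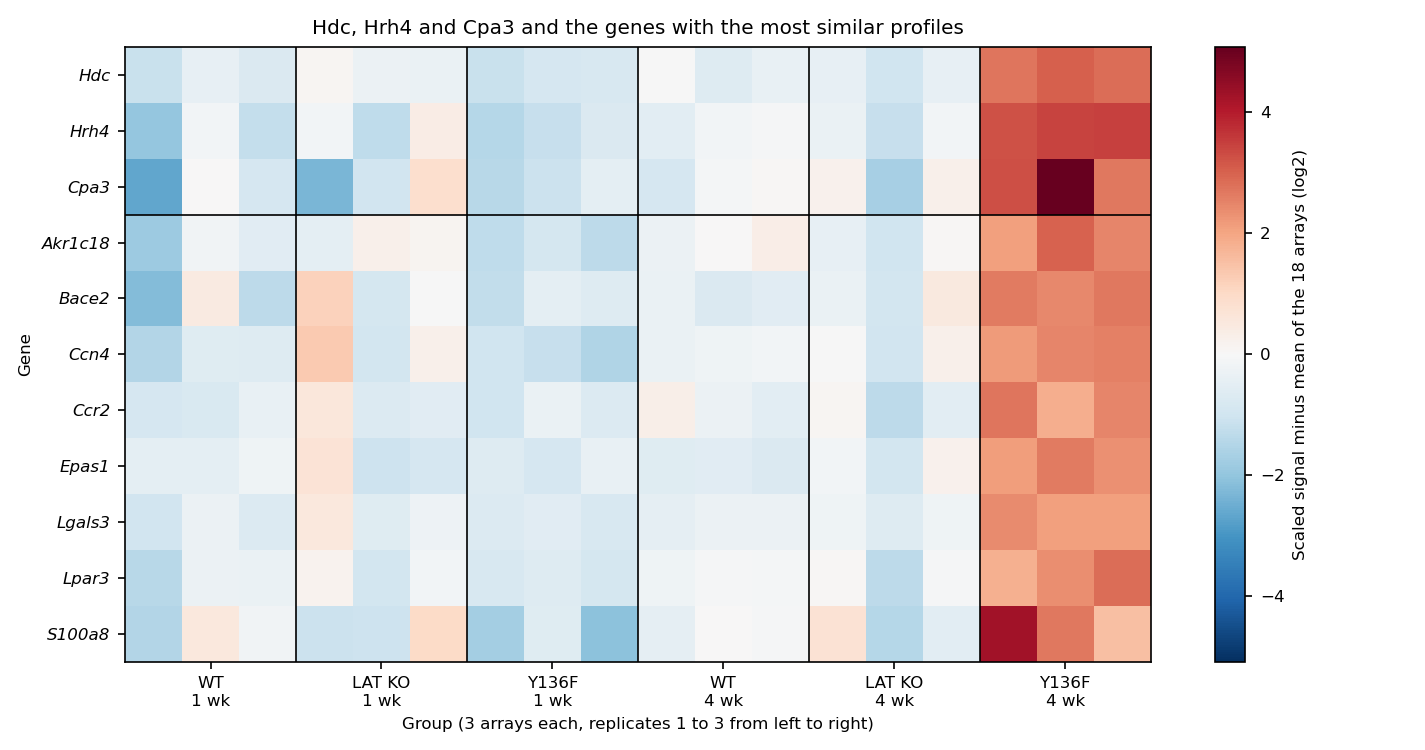
Scaled signal minus the mean of 18 arrays (log2, colour) of Hdc, Hrh4, Cpa3 and the genes closest to them (rows) on each array (columns, 3 per group). All rows are highest on the 3 Y136F arrays of 4 weeks, and S100a8 and Cpa3 differ most between these 3 arrays.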

How the data were processed

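RNA of 18 mice was hybridised to 1-colour arrays on 5 slides. Per the file headers, the deposited intensity values are background-corrected signals from Agilent Feature Extraction 10.5.1.1; the submitters' processing notes name version 10.5 and limma. A matrix of log2 values that the authors deposited, whose centring is not stated, served as an alternative. Here log2 intensity minus the 75th percentile of the array was used; outlier spots were left out, spots of a probe averaged, and the brightest probe of a gene kept if well above background on at least 3 arrays (31622 features). Symbols came by accession from a RefSeq table (GRCm38.p6), which named 24844 of 41174 probes; the array design refers to another build, so probe coordinates are not given. All groups were fitted together with limma 3.58.1 in R 4.3.3 (moderated tests with an intensity trend, two-sided, Benjamini-Hochberg over all features, threshold 0.05). The method was also run on simulated data with independent noise. These held no slide, sex or shared array effects, so that run does not cover such effects. Each p-value sets a group difference against the spread between mice, estimated over all 6 groups and moderated across features. The number of arrays limits the precision. The genes, lists and tests were chosen with earlier results of these data known. Named are all 6 genes and the 5 genes closest in profile. Of the list genes, some but not all of those called are named, with others of the smallest p or a role in histamine handling. Alternatives were background correction, normalization, the matrix, probe rules, filters, outlier spots, slide, sex, replicate block, array weights and arrays left out in turn.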

Additional observations from a re-analysis of the deposited data

Results flagged for a closer look

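For Hdc, every Y136F array lay below the WT mean at 1 week and above it at 4 weeks. At 1 week the difference was -0.15 ± 0.22 on the log2 scale (SE), within the spread of overlapping arrays; it was 0.31 on slide 5 and 0.017 without WT replicate 2, so no effect is established at that time. At 4 weeks it was 3.23 ± 0.22 (SE). The effect at 4 weeks minus that at 1 week was 3.38; the difference was not tested, since Hdc was selected on the 4-week values.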

How the results depend on the processing

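Over 23 alternatives per comparison, the number of the 5 genes called stayed at 0 in each comparison without the Y136F arrays of 4 weeks, and at 2 or 3 in Y136F against WT and in LAT KO against Y136F at 4 weeks, where Cpa3 was the gene lost; it was 3 or 4 for Y136F between times. No called difference reversed. Hdc, Hrh4 and Cpa3 were selected on the Y136F arrays of 4 weeks, so that their calls with these arrays persist is no test of them. Replicate numbers are shared by groups but the labels do not say that they pair mice: same-numbered deviations correlated from -0.45 to 0.53. With the number as a replicate block, 3 of the 5 genes were called in Y136F against WT at 4 weeks, as without it, and no call changed. With normexp background correction the differences of dim probes shrank (Cpa3 2.17, Hrh4 2.69 for Y136F against WT at 4 weeks). Cpa3 outside Y136F cells of 4 weeks lay near background, which limits every fold built on it.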
